A study of Mus musculus with 4 samples.

Results

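Transcripts of 10 basement membrane genes were examined in basal and luminal cells sorted from developing mouse prostate tips. The genes were 7 laminin chains outside laminin-332 (Lama1, Lama2, Lama4, Lama5, Lamb1, Lamb2 and Lamc1), the nidogens Nid1 and Nid2, and nephronectin (Npnt). They were chosen by name, with no threshold on their values, as 10 of the 49671 genes of the deposited table, and each symbol matched 1 gene. RNA-seq libraries were made from multipotent basal cells, sorted as high for both EpCAM and CD49f (n = 2, replicates 1 and 3, called B1 and B3), and from luminal cells derived from them, sorted as high for EpCAM and low for CD49f (n = 2, replicates 3 and 2, called L3 and L2). Both groups came from untreated CD-1 mice with ages given as postnatal day 10 to 13 in the labels, from ventral lobe tips of several animals, after cells positive for CD45, CD31 or CD140a had been excluded. No source used here says that the libraries of a group came from separate animals, so the p-values measure the spread between these libraries, which may be technical.

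Basement membranes are thin sheets of extracellular matrix on which epithelial cells rest. Each laminin is a trimer of an alpha, a beta and a gamma chain, and laminin trimers assemble into a network that cells hold through integrins and dystroglycan, while nidogens link this network to type IV collagen. In the prostate, basal cells touch the basement membrane and luminal cells lie above them, and stromal, smooth muscle and endothelial cells also make laminins and nidogens. Nephronectin is a basement membrane protein known as a ligand of integrin alpha8 beta1.

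The deposited values are read counts scaled to a common total, and each library's value of 1 read could be recovered from the spacing of its low values. This held for 98.29% of the low values of L2, the shallowest library, and for 97.89% to 98.99% of those of the others. 1 read was worth 6.26 and 6.50 units in B1 and B3, 19.4 units in L3 and 31.2 units in L2, so that 643267 to 3194307 reads lay behind a library and both luminal libraries were the shallower. Depth and cell type therefore cannot be told apart. Krt5, a basal keratin, was at 18481 and 15824 in basal libraries and at 77 and 93 in luminal libraries, and Krt8, a luminal keratin, was at 3012 and 4287 in basal libraries and at 13302 and 8320 in luminal libraries. Krt14 and Trp63 (basal) were also higher in both basal libraries, and Krt18 (luminal) in both luminal libraries. The sum over 5 basal markers, which include the sort gene Itga6, was 76943 and 58904 in basal and 6583 and 5328 in luminal libraries, and that over 7 luminal markers was 25219 and 25573 in basal and 56557 and 35651 in luminal libraries. The summed level of 12 stromal and smooth muscle markers was 130909 and 259661 in B1 and B3, and 81198 and 257309 in L3 and L2, with no marker at 0 in any library (Des, 1 of the 12, lay on another spacing than whole reads and is uncertain). These included Pdgfra, the gene of the sorted-out surface protein CD140a, which was at 3307 and 4144 in B1 and B3 and at 2575 and 8383 in L3 and L2, as well as Col1a1 at 17210, 59670, 22886 and 56436 and Acta2 at 9770, 21949, 3640 and 19944 in B1, B3, L3 and L2. Dcn, which encodes decorin, differed from these, with 45830 and 47724 in B1 and B3 and 5770 and 20256 in L3 and L2, and was the 1 gene of the list called lower by edgeR and DESeq2 (limma log2 fold change -2.11, adjusted p = 0.143). The sums ranged from 600 to 1745 over 7 endothelial, from 852 to 3369 over 7 immune and from 124 to 1032 over 5 nerve and glial markers. The defining endothelial marker Pecam1, which encodes CD31, was between 174 and 833, and the immune marker Ptprc, which encodes CD45, was at 150, 6, 0 and 0 in B1, B3, L3 and L2. Most of the immune sum came from Cd3e, a T cell receptor component, at 2173, 1462, 639 and 1807 in the same order.

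Of the 10 members, 3 had both luminal libraries below both basal libraries, against 27.3% of the genes tested, and the groups of the other 7 overlapped. The laminin alpha chain Lama1 was 10.3-fold lower in luminal libraries and was the 1 member of 10 that passed the test (limma, Benjamini-Hochberg adjusted p under 0.05, fitted over 18737 genes). Lama5 was 3.72-fold and Lamc1 2.17-fold lower by group averages without passing it. Lama2 and both nidogens were among the 7 that overlapped. In bulk RNA, fewer cells of a type and less RNA per cell cannot be told apart. All 10 members passed the filter on low values, and the background share of genes called lower in luminal libraries by limma was 0.438%. No member was called higher, against 0.256% of the genes tested.

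The upstream sequences of Lama5, the alpha chain with the highest level per kb in basal libraries, and of the 2 members without a lower average in luminal libraries, Lama2 and Nid1, are printed so that the regions before their starts can be compared. RefSeq windows on GRCm38.p6 were given for 6 of the 10 members. Lama1, Lama4, Lamc1 and Nid2 are named only. Each sequence runs 5′ to 3′ on the gene's strand, and capitals mark a GC box (GGGCGG) or a CCAAT box (CCAAT), searched on both strands. The Lama5 window (chr2:180225860-180226109, minus strand) ends at the base before the annotated gene. The Lama2 window (chr10:27616943-27617192, minus strand) lies inside the annotated gene and overlaps no annotated exon. The Nid1 window (chr13:13437352-13437550, plus strand) is shown up to the first annotated exon.
Lama5: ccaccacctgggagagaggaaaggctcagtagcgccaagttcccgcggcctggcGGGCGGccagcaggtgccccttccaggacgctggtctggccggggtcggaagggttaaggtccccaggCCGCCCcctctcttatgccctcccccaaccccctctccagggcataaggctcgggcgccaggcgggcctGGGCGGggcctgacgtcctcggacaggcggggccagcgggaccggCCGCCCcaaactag
Lama2: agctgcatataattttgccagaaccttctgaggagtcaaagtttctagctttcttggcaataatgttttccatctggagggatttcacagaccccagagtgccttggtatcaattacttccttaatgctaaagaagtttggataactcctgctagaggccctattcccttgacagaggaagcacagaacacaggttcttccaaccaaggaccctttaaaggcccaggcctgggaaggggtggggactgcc
Nid1: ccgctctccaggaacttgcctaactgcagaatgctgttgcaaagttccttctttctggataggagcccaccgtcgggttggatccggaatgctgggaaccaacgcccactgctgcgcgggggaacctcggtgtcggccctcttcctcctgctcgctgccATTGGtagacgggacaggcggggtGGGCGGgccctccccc
The Lama5 window held 4 GC boxes and 19 CG dinucleotides. The Lama2 window held no match to any motif searched and 0 CG dinucleotides, and the Nid1 stretch held 1 GC box, 1 CCAAT box and 13 CG dinucleotides in 199 bases. Over 32851 RefSeq windows of 250 bases, 32.7% held a GC box and 33.8% a CCAAT box, and the median was 6 CG dinucleotides. A TATA box (TATAAA) and an AP-1 site (TGANTCA), which 12.4% and 6.75% of all windows held, were in none of the 3. No matches overlapped, and the Nid1 stretch is shorter than the windows of the background. Of the windows not printed, that of Lamb2 held no GC box and 3 CG dinucleotides, and that of Lamb1 held 2 GC boxes and 14. The Npnt windows held 3 and 0 GC boxes, with 21 and 23 CG dinucleotides. A match describes the letters only, and its relation to the levels was not tested.

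**Figure D1:**
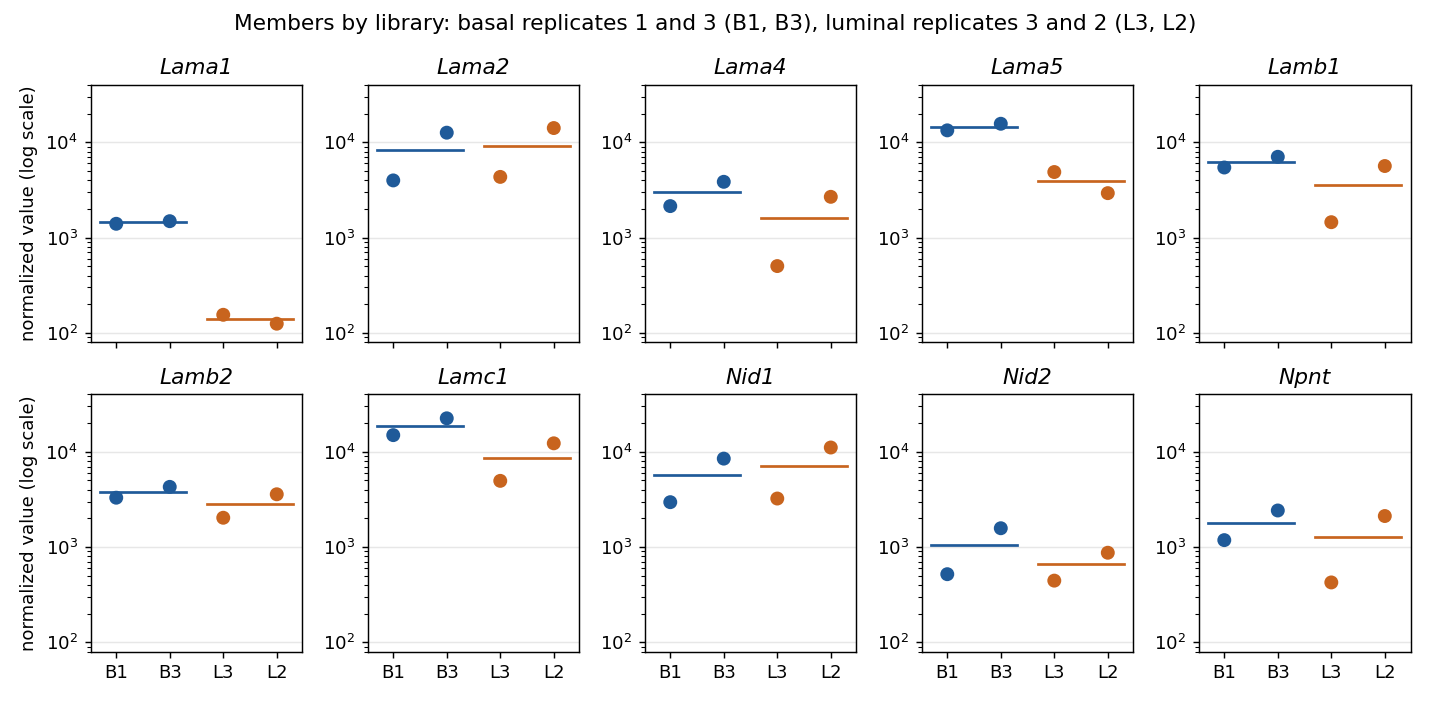
Normalized values of the 10 members in each library on a log scale, with basal libraries in blue, luminal libraries in orange and a line at each group's mean. Lama1, Lama5 and Lamc1 have both basal libraries above both luminal libraries, and the points of the other 7 members overlap between the groups.

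Alpha chains give a laminin trimer most of its cell binding. Lama1 (ENSMUSG00000032796, GRCm38 chromosome 17, 67697259 to 67822647) encodes the alpha1 chain, an early embryonic and epithelial laminin chain. Its normalized value was 1397 in B1, 1488 in B3, 155 in L3 and 125 in L2. Both basal libraries lay far above both luminal libraries, and the replicates of each group were close to each other. The group means were 1442.5 ± 64.3 and 140.0 ± 21.2 (SD, n = 2 each), and the fitted log2 fold change of luminal over basal was -3.36 ± 0.35 (SE, limma adjusted p = 0.0410). The luminal values rested on 8 and 4 reads, whose 95% Poisson intervals, which cover counting error only, reached from 66.9 to 305 and from 34.0 to 319. These intervals stayed below both basal values. The call was lost when B1, B3 or L2 was left out (limma adjusted p = 0.182, 0.180 and 0.0771), fits in which the lone library of a group is assumed to vary like the other group and 1 residual degree of freedom remains per gene. It was also lost when no filter was used (limma adjusted p = 0.228), while the log2 fold change stayed between -3.52 and -3.06 over 14 alternative settings, with adjusted p-values from 4.421e-05 (DESeq2) to 0.228.

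Lama5 (ENSMUSG00000015647, chromosome 2, 180176373 to 180225859) encodes the alpha5 chain, the widespread laminin alpha chain of mature epithelial basement membranes. It was at 13352 and 15655 in B1 and B3, at 4879 in L3 and at 2929 in L2. The groups did not overlap, and the higher luminal value came from L3, the luminal library with the lower summed level of stromal markers. Means were 14503.5 ± 1628 in basal and 3904 ± 1379 in luminal libraries (SD, n = 2 each), with a log2 fold change of -1.93 ± 0.31 (SE) and a limma adjusted p of 0.0659. Lama5 passed with edgeR on recovered reads (adjusted p = 0.00783), with DESeq2 (adjusted p = 0.000941), with a pseudocount of 10 (limma adjusted p = 0.0240) and with a filter that both groups had to pass (limma adjusted p = 0.00679), and over the 14 alternatives its adjusted p ranged from 0.000941 to 0.392.

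Lama2 (ENSMUSG00000019899, chromosome 10, 26980036 to 27619758) encodes the alpha2 chain, which is best known from muscle and peripheral nerve. Its values were 3983 and 12621 in B1 and B3, and 4337 and 14117 in L3 and L2. Each group held a low and a high library, 3.17-fold apart in basal and 3.26-fold apart in luminal cells, and the groups overlapped nearly completely. The means were 8302 ± 6108 and 9227 ± 6916 (SD, n = 2 each), and the log2 fold change was 0.14 ± 0.75 (SE, limma adjusted p = 0.937). Lama4 (ENSMUSG00000019846, chromosome 10, 38965515 to 39110188) encodes the alpha4 chain, found in endothelial and mesenchymal basement membranes. It was at 2142 and 3852 in B1 and B3 and at 503 and 2680 in L3 and L2. Luminal replicate 3 was the lowest of the libraries, L2 lay between the basal libraries, and the log2 fold change of -1.31 ± 0.81 (SE) did not pass (limma adjusted p = 0.442).

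The summed level of stromal markers, given above, was higher in B3 than in B1 and higher in L2 than in L3, in the order that Lama2 and Lama4 took. The part of stromal RNA in these values was not tested.

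Beta and gamma chains are shared by many trimers. Lamb1 (ENSMUSG00000002900, chromosome 12, 31265234 to 31329644), the beta1 chain, was at 5442 and 7048 in B1 and B3 and at 1452 and 5640 in L3 and L2. The groups overlapped because L2 lay above B1. The means were 6245 ± 1136 and 3546 ± 2961 (SD, n = 2 each), and the log2 fold change was -1.11 ± 0.64 (SE, limma adjusted p = 0.413). Lamb2 (ENSMUSG00000052911, chromosome 9, 108479736 to 108490530), the beta2 chain known from the neuromuscular junction and kidney glomerulus, was at 3300, 4287, 2033 and 3584 in B1, B3, L3 and L2. Its groups also overlapped, with a log2 fold change of -0.48 ± 0.34 (SE, limma adjusted p = 0.496).

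Lamc1 (ENSMUSG00000026478, chromosome 1, 153218922 to 153332786) encodes the gamma1 chain, the partner in most laminins. Its values were 14961 and 22456 in B1 and B3 and 4957 and 12278 in L3 and L2. Both basal values lay above both luminal values, while the luminal libraries differed 2.48-fold from each other. The means were 18708.5 ± 5300 and 8617.5 ± 5177 (SD, n = 2 each), and the log2 fold change of -1.23 ± 0.48 (SE) did not pass (limma adjusted p = 0.264).

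Nid1 (ENSMUSG00000005397, chromosome 13, 13437551 to 13512269) encodes nidogen-1, the linker between laminin gamma1 and type IV collagen. It was at 2962 and 8483 in B1 and B3 and at 3234 and 11094 in L3 and L2. As with Lama2, each group held a low and a high library, and the groups overlapped. The means were 5722.5 ± 3904 and 7164 ± 5558 (SD, n = 2 each), with a log2 fold change of 0.26 ± 0.74 (SE, limma adjusted p = 0.871). Nid2 (ENSMUSG00000021806, chromosome 14, 19751265 to 19811787), the related nidogen-2, was at 520 and 1578 in B1 and B3 and at 445 and 873 in L3 and L2. Its groups overlapped too, and the log2 fold change was -0.54 ± 0.63 (SE, limma adjusted p = 0.663). The luminal Nid2 values rested on 23 and 28 reads.

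Exons of Nid2 share 437 bases with Rtraf on the opposite strand, which was at 864, 1124, 678 and 873 in B1, B3, L3 and L2. Exons of Lama2 and Nid1 share 631 and 143 bases with annotated antisense genes. Whether strand was used in counting is not given in the sources used here, and reads from a gene and its antisense partner cannot then be told apart, so Nid2 above all is uncertain.

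Npnt (ENSMUSG00000040998, chromosome 3, 132881745 to 132950291) encodes nephronectin, whose integrin-binding arginine-glycine-aspartate codons are shown for reference because they are the site that ties the member to the receptor Itga8. The codons lie at chr3:132904665-132904673 (GRCm38, minus strand) in a coding exon of all 6 annotated coding transcripts, and the coding sequence around them, from GENCODE transcript Npnt-201 with the 3 codons in capitals, was as follows.
Npnt-201: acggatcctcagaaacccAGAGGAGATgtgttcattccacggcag
Npnt was at 1184 and 2423 in B1 and B3 and at 426 and 2119 in L3 and L2. Luminal replicate 3 was the lowest and L2 lay between the basal libraries. The means were 1803.5 ± 876 and 1272.5 ± 1197 (SD, n = 2 each), and the log2 fold change was -0.83 ± 0.80 (SE, limma adjusted p = 0.60).

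Levels of different genes were compared as normalized value per kb of merged exons. Lamc1 had the highest mean level per kb of the 10 members in basal libraries, 2262 ± 641 (SD, n = 2), and Lama5 followed at 1274 ± 143, Nid1 at 824 ± 562, Lamb1 at 630 ± 115 and Lamb2 at 624 ± 115. Lama2 came next at 508 ± 374 per kb, then Npnt at 359 ± 174, Lama4 at 248 ± 100, Nid2 at 203 ± 145 and Lama1 at 149 ± 6.65. In luminal libraries the mean level per kb was 1042 ± 626 for Lamc1, 1032 ± 800 for Nid1, 565 ± 423 for Lama2, 462 ± 180 for Lamb2, 358 ± 299 for Lamb1 and 343 ± 121 for Lama5 (SD, n = 2). Adjacent members in this order did not differ beyond their spread. Npnt followed at 253 ± 238, Lama4 at 132 ± 128 and Nid2 at 127 ± 58.5 per kb, again within their spread, and Lama1, at 14.5 ± 2.19 per kb, lay below Nid2 by more than both SDs. In basal libraries only Lamc1 and Lama5, of the neighbours in the order, lay apart by more than both SDs. With the longest transcript as length, Lama5 stayed second and Lamb1 moved to the third place in basal libraries, and Nid1 moved above Lamc1 in luminal libraries.

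The mix of chains within a library does not depend on the scaling between libraries. Among the 5 alpha chains, counting the laminin-332 chain Lama3, Lama5 made up 45.3% and 40.2% of the summed level per kb in B1 and B3, against 55.8% in L3 and 18.6% in L2. Lama2 took 9.42%, 22.6%, 34.6% and 62.5% in the same order, so it was below Lama5 in B1, B3 and L3 and above it in L2. The order in L3 depends on the length used: with the longest transcript in place of merged exons, Lama2 took 45.3% and Lama5 43.0% there. Per kb of merged exons, the level of Lama5 relative to Lama2 was 4.81, 1.78, 1.61 and 0.298 in B1, B3, L3 and L2. Lama1 was a small part throughout, 5.58% and 4.49% in basal and 2.09% and 0.934% in luminal libraries, and Lama3 took 32.9% and 23.4% in basal and 2.11% and 1.89% in luminal libraries. Among beta chains the mix in basal libraries was shared by Lamb1 (26.2% and 31.9%), Lamb2 (25.9% and 31.6%) and Lamb3 (47.9% and 36.5%). In luminal libraries Lamb3, of laminin-332, was at 2.37% and 0%, on 4 reads and 0 reads (a count of 0 allows up to 3 reads, for counting error only), while Lamb2 took 67.9% and 50.9% and Lamb1 29.7% and 49.1% in L3 and L2. With the longest transcript as length, Lamb2 took 57.5% and 39.5% and Lamb1 40.0% and 60.5%, so that the order of these chains turned in L2. With 2 libraries against 2 an exact permutation test cannot give a two-sided p below 0.333, so these shares are a description.

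**Figure D2:**
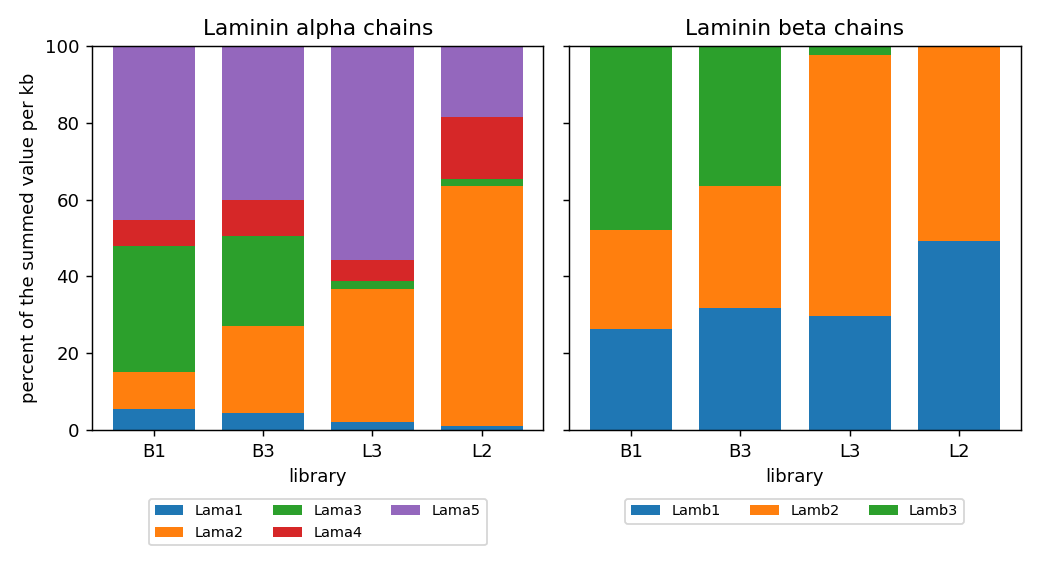
Percent of the summed normalized value per kb taken by each laminin alpha and beta chain in B1, B3, L3 and L2. Lama3 and Lamb3 each take under 3% in both luminal libraries, whereas Lama2 takes 34.6% and 62.5% of the alpha chains there.

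By group averages, 3 members were at least 2-fold lower in luminal libraries (Lama1, Lama5 and Lamc1), against a background of 16.3% of genes tested, and none was 2-fold higher, against 18.3%. The 3 became 7 without L2, 5 without B1 and 2 without B3 or L3, and the 0 became 2 without B3. The same 3 members had both basal libraries above both luminal libraries, where 27.3% of all genes did, and no member had both luminal libraries above both basal ones, where 23.6% of genes did. Both edgeR and DESeq2 on recovered reads called 2 members lower (Lama1 and Lama5), with backgrounds of 2.72% and 2.22%, and none higher. At an unadjusted limma p under 0.05 there were 3 members, Lama1, Lama5 and Lamc1, each lower in luminal libraries, as were 10.7% of the genes tested. The median log2 fold change of the 10 members was -0.97, beside -0.10 over all genes tested, and it was -0.08 without L3. Nuclear protein-coding genes made up 76.0% and 74.7% of the summed values in B1 and B3 and 57.3% and 64.2% in L3 and L2. After rescaling to these genes the median was -0.66 for the members and 0.21 for all genes tested. The log2 fold change of Lamb2 was then -0.17 in place of -0.48, and no member changed direction. With this rescaling, and also with quantile normalization, 2 members in place of 3 were 2-fold lower. The log2 fold change of Lamc1 was -0.92 and -0.83 in these settings.

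The members also differed between the libraries of 1 cell type. All 10 were higher in B3 than in B1, as were 42.4% of the genes tested, and 8 were higher in L2 than in L3, as were 52.7%. Those 8, all but Lama1 and Lama5, were higher in both pairs, where the background was 23.4%. Of the 12 stromal and smooth muscle markers 11 were also higher in both pairs, and of the 5 basal markers none was. So were 8 of 10 network collagens and proteoglycans, 8 of 19 other basement membrane glycoproteins and 5 of 10 receptors. Among other laminin chains it was 1 of 3, and among dystroglycan glycosylation enzymes 1 of 10. The ratios of members ranged from 1.07-fold (Lama1) to 3.17-fold (Lama2) between basal libraries and from 0.60-fold (Lama5) to 5.33-fold (Lama4) between luminal libraries. The part of stromal RNA in this order was not tested.

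**Figure D3:**
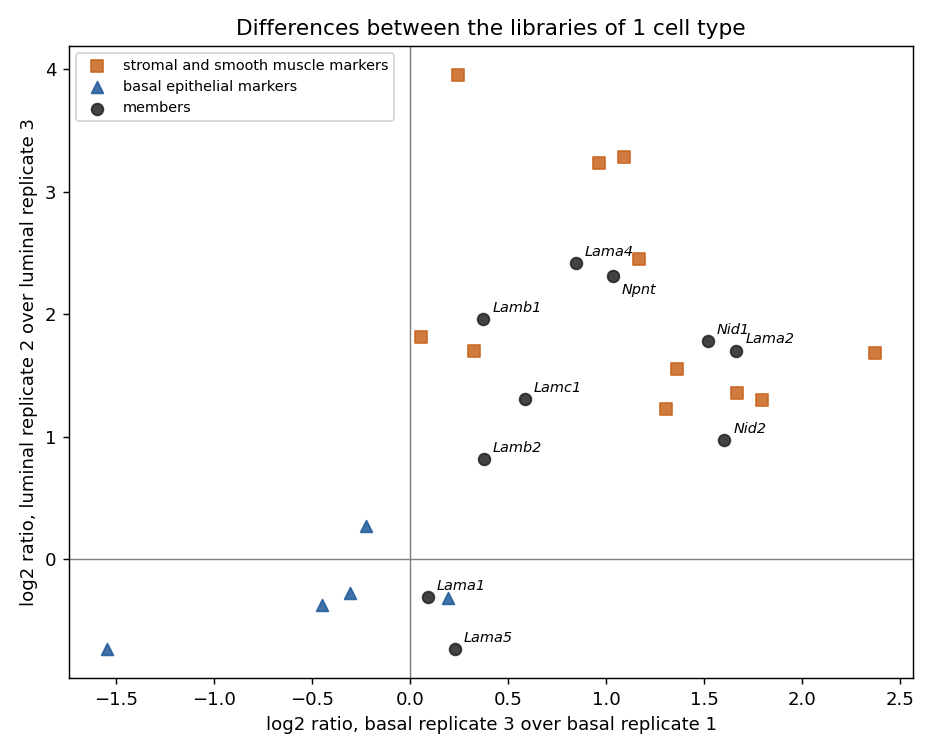
Log2 ratio of B3 over B1 (horizontal) against log2 ratio of L2 over L3 (vertical) for the 10 members (circles), 11 stromal and smooth muscle markers (squares, without Des) and 5 basal markers (triangles). 8 members lie in the upper right with the stromal markers, and Lama1 and Lama5 lie below 0 on the vertical axis.

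Leaving out 1 library turned the direction of Lama2 and Nid1, to log2 fold changes of -0.69 and -0.50 without B1 and -0.71 and -0.63 without L2. Nid2 turned to 0.26 without B3, and Npnt turned to 0.32 without L3. Lama1 and Lama5 kept theirs, between -3.52 and -3.21 and between -2.30 and -1.57. Lamc1, Lamb1, Lamb2 and Lama4 stayed negative but came as near to 0 as -0.58, -0.14, -0.07 and -0.10 without L3.

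**Figure D4:**
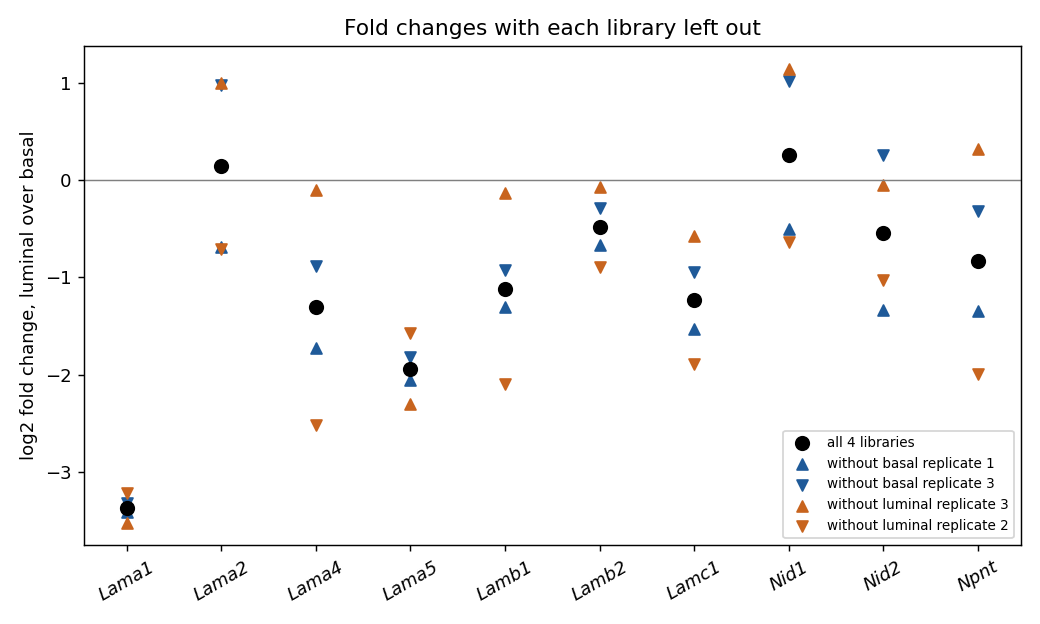
Log2 fold change of luminal over basal for each member with all 4 libraries (black) and with each library left out (triangles, colored by the group of the library). Lama1 and Lama5 stay below -1.5 in every setting shown, while Lama2, Nid1, Nid2 and Npnt cross 0.

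Around the members, 52 other genes of the basement membrane, its receptors and dystroglycan glycosylation were compared in the same fit, and 49 passed the filter. Limma called 7 lower in luminal libraries, the sort gene Itga6 among them, against 0.438% of the genes tested. It called 0 higher, against 0.256% (1 was higher at an unadjusted p under 0.05). Called higher were 0 with edgeR and 1, Col15a1, with DESeq2. Of 3 other laminin chains 1 passed, and the median log2 fold change was -5.32. The chain that passed was Lama3, the alpha chain of laminin-332, with values of 9137 and 8613 in basal and 174 and 280 in luminal libraries and a log2 fold change of -5.32 (limma adjusted p = 0.0184). Lamb3 was at 6626 and 5385 against 77 and 0, and missed the threshold with a limma adjusted p of 0.0705. Lamc3 had a log2 fold change of 0.51 (limma adjusted p = 0.670).

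Among 10 network collagens and heparan sulfate proteoglycans, 2 passed, both lower in luminal libraries, and the median log2 fold change was -1.65. Col18a1, which encodes collagen XVIII, was at 7928 and 8087 in basal and 852 and 841 in luminal libraries (log2 fold change -3.24, limma adjusted p = 0.0186). Agrn, which encodes agrin, a proteoglycan that binds laminin and dystroglycan, was at 17554 and 17376 against 2769 and 2400 (log2 fold change -2.76, limma adjusted p = 0.0274). Col4a2, a chain of the type IV collagen that nidogens tie to laminin, was at 14373 and 18454 against 2091 and 4861 and missed the threshold (log2 fold change -2.35, limma adjusted p = 0.0688). In this list 6 genes were 2-fold lower, against 16.3% of the genes tested, and 1, Col15a1, was 2-fold higher, against 18.3%. The values of Col15a1, however, were not whole reads of their libraries and are uncertain.

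Of 19 other basement membrane glycoproteins, 17 passed the filter and 1 passed the test, lower in luminal libraries, against 0.438% of the genes tested. The median log2 fold change was -1.09. Smoc2, a matricellular protein, was at 16490 and 15655 in basal and 736 and 1496 in luminal libraries (log2 fold change -3.94, limma adjusted p = 0.0354). Fbln2, which encodes the laminin- and nidogen-binding fibulin-2, was at 5618 and 5301 against 232 and 623 (log2 fold change -3.84, limma adjusted p = 0.0515). Smoc1 was at 75 and 273 against 0 and 312, with a limma adjusted p of 0.573.

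Of 10 receptors that bind laminins or nephronectin, 3 passed the limma test, each lower in luminal libraries, against 0.438% of the genes tested. By group averages 9 were at least 2-fold lower, against 16.3% (median log2 fold change -2.13). Both counts include the sort gene Itga6. Itga3, the integrin alpha3 subunit that binds laminins with alpha3 and alpha5 chains, was at 5405 and 4164 in basal and 349 and 405 in luminal libraries (log2 fold change -3.65, limma adjusted p = 0.025). Bcam, the Lutheran receptor of the alpha5 chain, was at 3244 and 3969 against 252 and 93 (log2 fold change -4.54, limma adjusted p = 0.0454). Itga2, a subunit of a collagen and laminin receptor, was at 426 and 773 against 39 and 187 (log2 fold change -2.73, limma adjusted p = 0.184). Itga6 encodes CD49f, by which the cells were sorted, so its log2 fold change of -2.21 (limma adjusted p = 0.0410) is no finding. Its partners Itgb4 and Itgb1 had log2 fold changes of -2.06 and -1.20 (limma adjusted p = 0.0637 and 0.144). Dag1, which encodes dystroglycan, was at 6106 and 5593 in basal and 1297 and 2275 in luminal libraries (log2 fold change -1.77, limma adjusted p = 0.0688). Itga8, the nephronectin receptor subunit, was at 564 and 1942 in B1 and B3 and at 387 and 779 in L3 and L2, overlapping like its ligand (log2 fold change -0.93, limma adjusted p = 0.503).

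Dystroglycan binds laminin through a sugar chain, and of 10 enzymes that take part in building it 9 passed the filter. None passed the limma test in either direction, and edgeR and DESeq2 called none. At an unadjusted limma p under 0.05 there was 1, lower in luminal libraries, as were 10.7% of the genes tested. The log2 fold changes of the 9 enzymes ranged from -0.83 to 1.08, with a median of -0.28. The highest was that of Pomk, a kinase of this sugar chain, which was at 132 and 71 in basal and 194 and 218 in luminal libraries (limma adjusted p = 0.431).

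**Figure D5:**
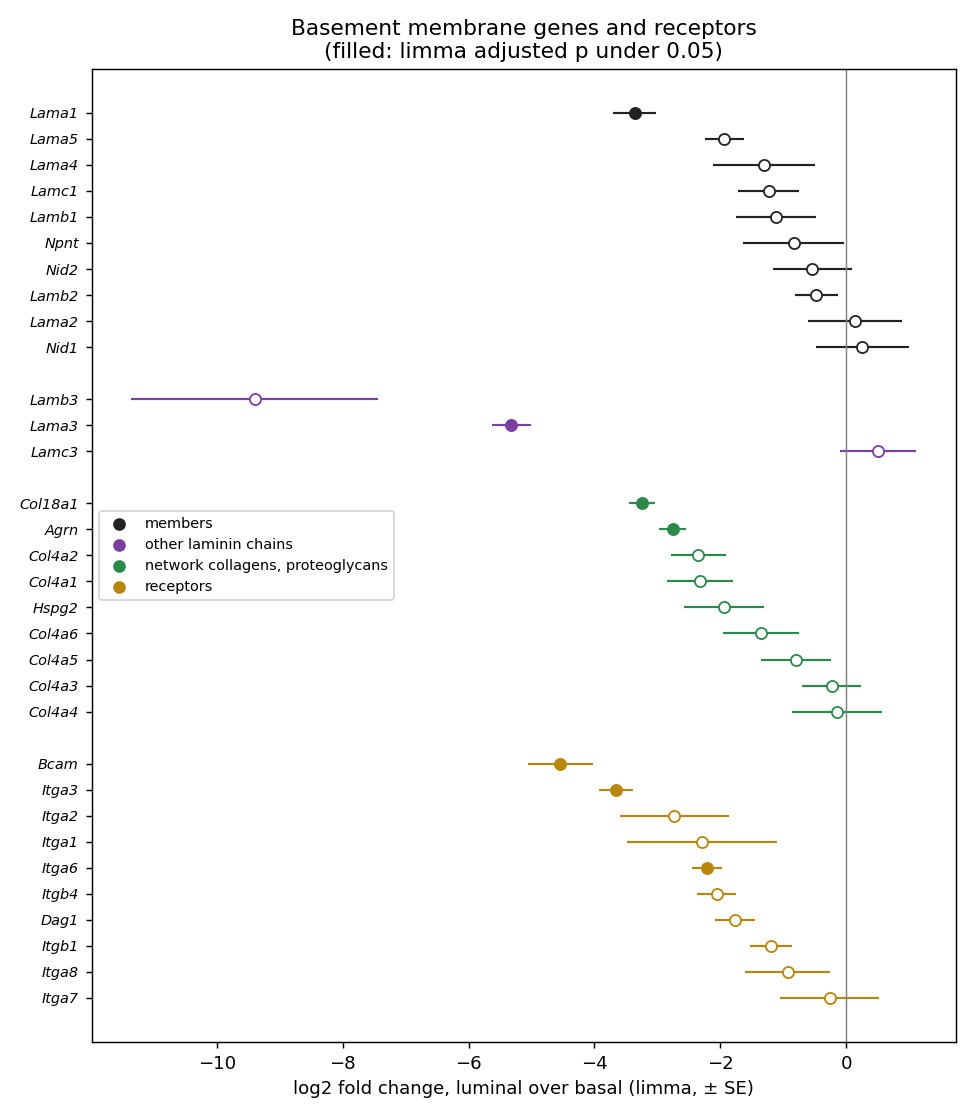
Limma log2 fold change of luminal over basal with its SE for the members, the other laminin chains, the network collagens and proteoglycans (without Col15a1) and the receptors, each from 2 libraries per group, with filled circles for an adjusted p under 0.05. The value of Lamb3, at 4 and 0 reads in luminal libraries, depends on the pseudocount. Lama1 is the 1 filled member, and Lama2 and Nid1 are the members to the right of 0. Itga6, among the filled receptors, encodes CD49f, by which the cells were sorted.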

How the data were processed

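RNA-seq libraries of basal (n = 2) and luminal (n = 2) cells were grouped as labelled. The authors mapped reads to GRCm38, with STAR, Picard and HTSeq named in the submitters' processing notes, and deposited a signal per gene, the count scaled to a common total and rounded. The role of Picard and the use of strand are not given in the sources used here. All value columns were mapped, leaving 0 unmapped.

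The value of 1 read was fitted to the spacing of low values, and 97.9% to 99.0% of these lay within 0.6 units of whole reads. The recovered reads ranged from 643267 to 3194307 per library. 392 genes lay on another spacing, none of them a member. Genes at 10 or more in every sample of a group averaging 20 or more were tested (18737). limma 3.58.1 in R 4.3.3 was fitted to log2 of the value plus 1 with a trended prior, and fold changes are on that scale, which understates the change of low genes and, since 1 read is worth 6.26 to 31.2 units, overstates it where a library is at 0. Whole recovered reads also entered edgeR 4.0.16 and DESeq2 1.42.0. Group averages were also compared at 2-fold. The fits were also run on simulated counts with planted fold changes and a common dispersion for all genes. In these data the spread varies between genes, so that run gives no error rate for them. Symbols and coordinates came from GENCODE vM21. Other tools were Python 3.11.15, numpy 2.4.6, pandas 2.3.3, scipy 1.17.1 and matplotlib 3.10.9.

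The members and lists were chosen with earlier results of these data known. All members were named, and in the other lists genes with a limma adjusted p under 0.05, up to 3 with the largest fold change at an average of 100 or more, and 6 receptors whatever their values. Col15a1, Dcn, Des, Cd3e and Rtraf were named after their values were seen. Alternatives changed the filter, pseudocount, scaling, model, fold threshold and gene length, and left out each library. Some genes of the lists, and the results that need them, are not reported here.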

Additional observations from a re-analysis of the deposited data

How the results depend on the processing

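The call of 1 member by limma became 0 without a filter and 2 with a filter on both groups, a pseudocount of 10, edgeR or DESeq2, and ranged from 0 to 1 with a library left out, being 0 without basal replicate 1, basal replicate 3 or luminal replicate 2. The 7 calls in the other lists became 0 without a filter, 13 with the filter on both groups, 13 with a pseudocount of 10, 4 without a trended prior, 14 with edgeR and 16 with DESeq2, and ranged from 3 to 6 with a library left out. The 3 members 2-fold lower became 1 at a threshold of 4, and ranged from 2 to 7 with a library left out (5 without basal replicate 1, 7 without luminal replicate 2), while the 0 higher became 2 without basal replicate 3 (range 0 to 2). The median of -0.97 ranged from -1.73 to -0.0848, the latter without luminal replicate 3. With a library left out, Lama2 ranged from -0.71 to 0.99, Nid1 from -0.63 to 1.15, Nid2 from -1.34 to 0.26 and Npnt from -1.99 to 0.32, and reversed values were -0.69 (Lama2) and -0.50 (Nid1) without basal replicate 1. With the longest transcript as length, Lama5 made up 35.8% of alpha chains in basal libraries, and the orders of Lama5 and Lama2 in luminal replicate 3 (43.0% and 45.3%) and of Lamb1 and Lamb2 in luminal replicate 2 (60.5% and 39.5%) turned. Fits without a library leave 1 residual degree of freedom per gene. The cause of these shifts was not tested. Rescaling to nuclear protein-coding genes gave all genes a median of 0.21 in place of -0.10, and the direction of no member changed. With this rescaling or quantile normalization, 2 members in place of 3 were 2-fold lower. Over all genes, limma called 130 of 18737 in the main fit and 0 of 27872 without a filter. With the filter on both groups it called 678 of 14953, and with a pseudocount of 10 it called 531 of 18737. Without a trended prior the calls were 544, with edgeR 951 and with DESeq2 819. The counts for members and other lists are to be read beside these totals. Of the limma calls over all genes, 82 of 130 were lower in luminal libraries, against 62 of 125 with the rescaling to nuclear protein-coding genes and 114 of 438 with quantile normalization. Without basal replicate 1 or 3 they were 587 of 593 and 751 of 831, and without luminal replicate 3 or 2 they were 161 of 991 and 14 of 312. Leaving out the genes on another spacing, chosen after seeing the data, changed no call of a member. No paired analysis was possible because the groups share only replicate number 3. At the depth of luminal replicate 2, where 1 read was worth 31.2 units, a difference of a few reads in Lama1, Nid2 or Npnt was not detectable.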
